A study of Homo sapiens with 36 samples.

Results

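The 39 genes described here carry the unfolded protein response and the integrated stress response, and they were taken as a listed set from 35474 gene symbols in the tables. They were divided by the factor each is best known to answer to into an XBP1 branch of 8 genes, an ATF6 branch of 13 genes and an ATF4 branch of 18 genes. The division was made here, and several of the genes answer to more than 1 factor. The members were chosen with earlier results of these data known, so counts of calls set beside all genes are not independent of that choice.

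RNA was sequenced from MOLM-13 and MONO-MAC-6 cells, 2 human acute myeloid leukaemia lines labelled wild type. The control groups received DMSO, the vehicle, and the treated groups received A9, a PROTAC (a compound that brings a target protein to a ubiquitin ligase for degradation), at 0.125 µM in MOLM-13 and at 0.25 µM in MONO-MAC-6. All cells were harvested at 72 h, so no early time point is described. The series names NR4A1 and an IκB kinase as the proteins degraded, as IKK1 in its title and as IKK2 in its design text, and levels of mRNA give no check on the loss of a protein. Each of the 4 groups held 9 libraries, which were averaged by the first of the 2 numbers in their labels to 3 samples. The labels do not say which number is the replicate, and averaging by the second gave 23 calls among the members in MOLM-13 in place of 2, and 33 in MONO-MAC-6 in place of 6. If the first number marks the sample, each average by the second mixes all 3 samples, and those larger counts would not rest on replicates. Nothing in the labels says that the samples came from separate cultures, so the p-values measure the spread between these samples, which may be technical. A9 was given to each line at 1 dose only, and effects of line and of dose cannot be told apart.

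In a stressed endoplasmic reticulum (ER), unfolded proteins draw the chaperone HSPA5 away from a set of membrane sensors. The sensor IRE1 (gene ERN1) is a nuclease that cuts a short intron out of XBP1 mRNA in the cytoplasm, and the spliced mRNA encodes an active transcription factor for chaperone and degradation genes. The sensor ATF6 is cleaved in the Golgi and its free end activates chaperone genes. The sensor PERK (gene EIF2AK3) phosphorylates the translation factor eIF2, which slows protein synthesis while favouring translation of ATF4 mRNA. ATF4 then activates genes of amino acid uptake, serine synthesis and one-carbon metabolism, and CHOP (gene DDIT3). Other kinases that sense amino acid shortage, haem shortage or viral RNA converge on eIF2 as well, which is why this arm is called the integrated stress response. In leukaemia cells these pathways can be active at some level without added stress.

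The XBP1 sequence is shown because the tables hold separate values for transcript models with and without the intron. The stretch lies at chr22:28796092-28796177 on the minus strand of GRCh38, in coding exons as annotated in GENCODE 29, and the capitals mark the 26 bases that the spliced model lacks.
XBP1 unspliced: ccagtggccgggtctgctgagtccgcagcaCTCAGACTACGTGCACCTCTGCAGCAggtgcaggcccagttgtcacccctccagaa
XBP1 spliced: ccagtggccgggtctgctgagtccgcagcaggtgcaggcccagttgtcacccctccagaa
Since 26 divided by 3 leaves 2, removal of the intron shifts the reading frame of everything downstream.

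Promoters were searched for the ER stress response element ERSE (CCAAT and CCACG parted by 9 bases), which ATF6 and XBP1 bind together with NF-Y. Promoters of 300 bases from RefSeq (GRCh38.p14) matched 36 members, and 7 of them held ERSE on either strand (CALR, CANX, CRELD2, HSP90B1, HSPA5, PDIA6 and XBP1), against 0.0769% of all 35097 promoters. Of these members, 5 were of the ATF6 branch, 2 of the XBP1 branch and 0 of the ATF4 branch. The sites of 3 genes from both branches are shown to let them be compared, read along the motif, with its fixed bases in capitals.
XBP1: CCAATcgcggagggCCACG
HSPA5: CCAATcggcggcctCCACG
CALR: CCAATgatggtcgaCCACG
The XBP1 site lay at -52 to -34 from the RefSeq start (counted as 0), the HSPA5 site at -66 to -48 and the CALR site at -225 to -207 on the opposite strand.

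The other motifs were searched in the same way. The branches were made from the factors the genes are known to answer to, so a match of motif and branch, as for ERSE, tests nothing. The related element ERSE-II (ATTGG and CCACG parted by 1 base) was found in HERPUD1, HYOU1 and SDF2L1, all ATF6 branch genes, against 0.0541% of promoters. UPRE (TGACGTGG) was found in HYOU1 alone among the members, against 0.729%. The C/EBP-ATF response element, CARE (TGATGNAA), which ATF4 binds with C/EBP partners, was found in 6 members (ASNS, ATF3, CEBPG, CHAC1, SLC3A2 and HERPUD1), 5 of them of the ATF4 branch, against 3.62% of promoters. CRE (TGACGTCA) was found in PPP1R15A alone, against 1.85%. A match describes letters within the window and not a bound site. Members were counted if any of their promoters matched, whereas the shares are of single promoters.

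The promoters of the 5 members with the lowest p in a line are printed from 250 bases before the start up to the start, with ERSE or CARE in capitals where present.
XBP1 (chr22:28800570-28800819, minus strand): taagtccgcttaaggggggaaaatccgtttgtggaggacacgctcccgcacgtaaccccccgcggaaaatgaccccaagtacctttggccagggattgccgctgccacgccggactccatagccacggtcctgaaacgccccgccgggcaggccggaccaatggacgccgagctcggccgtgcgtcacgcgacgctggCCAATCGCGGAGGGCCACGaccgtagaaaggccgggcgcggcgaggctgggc
DDIT4 (chr10:72273674-72273923, plus strand): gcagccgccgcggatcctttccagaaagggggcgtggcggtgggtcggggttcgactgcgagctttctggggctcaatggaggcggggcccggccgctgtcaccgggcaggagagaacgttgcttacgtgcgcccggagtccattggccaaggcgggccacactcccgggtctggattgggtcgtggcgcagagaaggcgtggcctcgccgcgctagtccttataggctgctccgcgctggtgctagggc
PHGDH (chr1:119711684-119711933, plus strand): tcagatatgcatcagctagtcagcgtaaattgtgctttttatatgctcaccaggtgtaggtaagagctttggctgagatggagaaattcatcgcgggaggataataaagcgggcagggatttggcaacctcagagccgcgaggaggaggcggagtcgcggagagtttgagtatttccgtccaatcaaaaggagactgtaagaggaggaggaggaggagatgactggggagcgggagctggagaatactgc
CALR (chr19:12938359-12938608, plus strand): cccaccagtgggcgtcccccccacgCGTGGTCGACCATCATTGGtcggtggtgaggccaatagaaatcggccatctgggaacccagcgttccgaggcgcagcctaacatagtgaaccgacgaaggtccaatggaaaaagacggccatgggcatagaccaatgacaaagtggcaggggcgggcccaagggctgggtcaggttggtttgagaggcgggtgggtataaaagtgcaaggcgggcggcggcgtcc
CHAC1 (chr15:40953221-40953470, plus strand): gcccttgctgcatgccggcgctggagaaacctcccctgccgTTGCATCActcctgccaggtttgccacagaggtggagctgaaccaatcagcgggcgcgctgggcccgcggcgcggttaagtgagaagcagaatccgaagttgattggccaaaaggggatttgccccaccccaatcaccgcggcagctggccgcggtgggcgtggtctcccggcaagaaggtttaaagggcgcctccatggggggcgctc
The DDIT4 and PHGDH windows hold none of the 5 motifs.

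Expression is given as TPM, in which transcript length is corrected for and every library has the same total, so levels of different genes can be compared. Each library summed to 1000000 TPM, and its depth is unknown because TPM keep no counts. MONO-MAC-6 DMSO sample 1 stood apart: its TPM-weighted mean transcript length was 1244 bases against 1415 to 1450 in the other 5 MONO-MAC-6 samples, and ribosomal protein genes held 25.0% of its TPM against 16.4% to 18.7%. The MOLM-13 samples ran from 1228 to 1414 bases, with long and short samples in both groups. Results in MONO-MAC-6 are therefore given with and without that sample. The lines matched their labels in that 9 or 10 of 10 myeloid leukaemia markers reached 1 TPM in every group, while CD3E, MS4A1 and HBB were listed at 0. CSF1R stayed under 1 TPM outside MOLM-13 A9, and CD14 under 1 TPM in MOLM-13. The summed level of 10 monocyte maturation markers moved with A9, from 247 to 262 TPM with DMSO to 636 to 727 TPM with A9 in MOLM-13, and from 4377 to 6567 TPM to 9303 to 10300 TPM in MONO-MAC-6. FCGR3A was at 0 in MOLM-13 A9 and in MONO-MAC-6 DMSO. The summed myeloid markers moved too, from 754 to 833 TPM to 950.3 to 1093 TPM in MOLM-13, and from 4322 to 5223 TPM to 9093 to 9339 TPM in MONO-MAC-6. The 5 epithelial and stromal markers, of which KRT18 and PECAM1 exceeded 1 TPM, summed to 52.2 to 135 TPM with DMSO and to 200.5 to 224 TPM with A9 in MONO-MAC-6. The part of these shifts in the results on stress genes was not tested.

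In MOLM-13, XBP1 and DDIT4 fell with A9, and 0 members passed the test as higher, although NUPR1 and DNAJB9 were higher in every A9 sample. These were 2 of 39 members with an adjusted p under 0.05 (limma, Benjamini-Hochberg over all genes), where 0.121% of all 11597 genes tested passed (0.0862% as higher and 0.0345% as lower). The log2 fold change (A9 over DMSO, on log2(TPM + 1)) was below 0 for 28 members and above 0 for 11, with a median of -0.12 against -0.05 over all genes. At an unadjusted p under 0.05 there were 6 of 39 members, against 7.90% of all genes. The A9 and DMSO samples did not overlap for 9 of 39 members, against 15.0% of all genes: 7 were lower (6.42% of all genes) and 2 higher (8.59%). Bulk RNA does not tell fewer cells of a type from less RNA per cell.

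In MONO-MAC-6, XBP1, CALR, PHGDH, ASNS and CHAC1 fell and NUPR1 rose. These were 6 of 39 members, against 3.36% of 12870 genes tested (2.51% higher and 0.855% lower). The median log2 fold change of the members was -0.04 and that of all genes was 0.16, and 25 of 39 members lay below the all-gene median. At an unadjusted p under 0.05 there were 16 members, against 20.5% of all genes. The treatments did not overlap for 21 members, against 37.9% of all genes: 12 were lower (10.7% of all genes) and 9 higher (27.2%). With median-ratio scaling, which brought the all-gene median to 0.01, 8 members passed, 0 higher and 8 lower (XBP1, PDIA6, PHGDH, PSAT1, SHMT2, ASNS, SLC7A5 and CHAC1). Without DMSO sample 1, 22 members passed, 5 higher and 17 lower, where 24.8% of all genes passed (14.5% higher and 10.3% lower). The 22 include the 6 that passed with all samples. All 39 members passed the filter in each line, NUPR1 in MOLM-13 and ATF3 in MONO-MAC-6 only through their A9 samples.

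**Figure D1:**
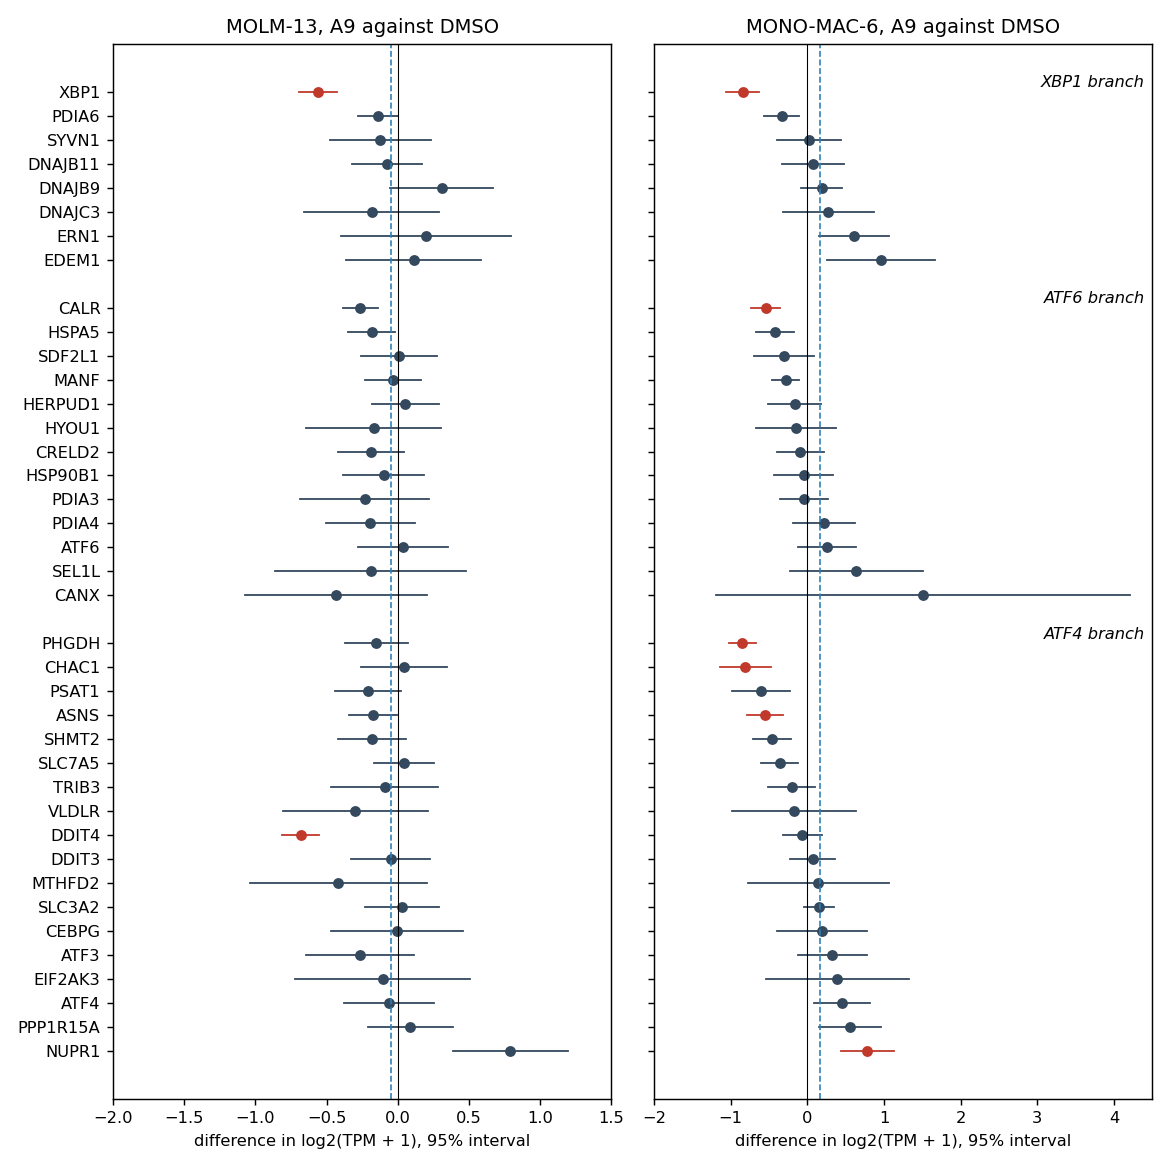
Log2 fold change of the 39 members (A9 over DMSO, horizontal axis) in MOLM-13 and MONO-MAC-6, grouped by branch on the vertical axis, with 95% intervals as bars, red for an adjusted p under 0.05 and a dashed blue line at the median of all genes tested. The horizontal ranges differ between the panels. XBP1 is red in both, DDIT4 in MOLM-13 alone, and the interval of CANX in MONO-MAC-6 runs from -1.20 to 4.21.

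XBP1 mRNA fell in both lines. In MOLM-13 (gene at chromosome 22, 28794555 to 28800597, minus strand) it measured 254, 251 and 250.3 TPM with DMSO and 176, 173 and 162 TPM with A9. The MONO-MAC-6 samples held 254, 269 and 258 TPM with DMSO and 159, 133 and 143 TPM with A9. Every A9 sample lay below every DMSO sample, and the DMSO means were 252 TPM (MOLM-13) and 260.4 TPM (MONO-MAC-6). This gave a log2 fold change of -0.56 (SE 0.055, 95% interval -0.69 to -0.43, adjusted p = 0.0358, limma) in MOLM-13, a level of 0.677 of the control. It was -0.84 (SE 0.089, 95% interval -1.06 to -0.63, adjusted p = 0.00682, limma) in MONO-MAC-6, a level of 0.557 of the control. Among 11056 genes tested in both lines, 0.0904% passed in each, and XBP1 was the 1 member that did. The difference between the lines was -0.28 (95% interval -0.50 to -0.07, adjusted p = 0.173). In MOLM-13 the call was lost in each fit without 1 sample, at adjusted p from 0.0675 to 0.287, while the log2 fold change stayed between -0.59 and -0.53. It was also lost with scaling (adjusted p = 0.131) and with no filter (adjusted p = 0.128). In MONO-MAC-6 it was lost in 2 of 6 such fits, those without A9 sample 2 or A9 sample 3, with adjusted p up to 0.0733.

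The summed TPM of XBP1 transcripts matched to the annotation fell. The spliced share of that sum was higher in every A9 sample of both lines. The share of XBP1 TPM in the spliced model was 3.85%, 4.24% and 3.09% with DMSO and 6.86%, 8.17% and 6.86% with A9 in MOLM-13, a mean of 3.73% ± 0.587 against 7.30% ± 0.755 (SD, n = 3). In MONO-MAC-6 it was 8.34%, 8.32% and 8.34% with DMSO and 9.22%, 10.9% and 8.66% with A9, a mean of 8.34% ± 0.0141 against 9.61% ± 1.19 (SD, n = 3). The A9 samples lay above the DMSO samples in both lines, by 3.57 percentage points for MOLM-13 and 1.27 for MONO-MAC-6. The exact two-sided permutation p was 0.1 in each, the smallest that 3 against 3 samples allow. Among single libraries the shares did not overlap in MOLM-13 (2.89% to 4.68% against 5.59% to 8.79%) and overlapped in MONO-MAC-6 (6.64% to 9.69% against 7.65% to 12.03%). Without A9 sample 2 the difference in MONO-MAC-6 was 0.603 percentage points.

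The level of the spliced model itself was higher with A9 in MOLM-13 and lower in MONO-MAC-6, a difference between the lines that was not tested. The MOLM-13 samples held 9.78, 10.7 and 7.73 TPM with DMSO and 12.1, 14.1 and 11.1 TPM with A9. MONO-MAC-6 values were 21.2, 22.4 and 21.6 TPM with DMSO and 14.7, 14.5 and 12.4 TPM with A9. The groups did not overlap in either line (exact permutation p = 0.1 in each, two-sided), with ratios of A9 to DMSO of 1.33 and 0.638. The remaining XBP1 models, at 242 TPM (MOLM-13) and 239 TPM (MONO-MAC-6) with DMSO, came to 0.652 and 0.549 of those levels with A9. Among the listed XBP1 models matched to the annotation, a single one has the gap. It is 1131 bases long against 1850 for the main unspliced model, so its TPM reflect its shorter end as well as the splice junction. Listed transcripts without a match were not searched for the gap or for XBP1 origin. The levels and shares of the spliced model therefore describe the matched models only. A second annotated model with the gap, of 1794 bases, was not among the listed transcripts. It places the 26-base gap at chr22:28796124-28796149, against 28796122-28796147 in the listed model.

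**Figure D2:**
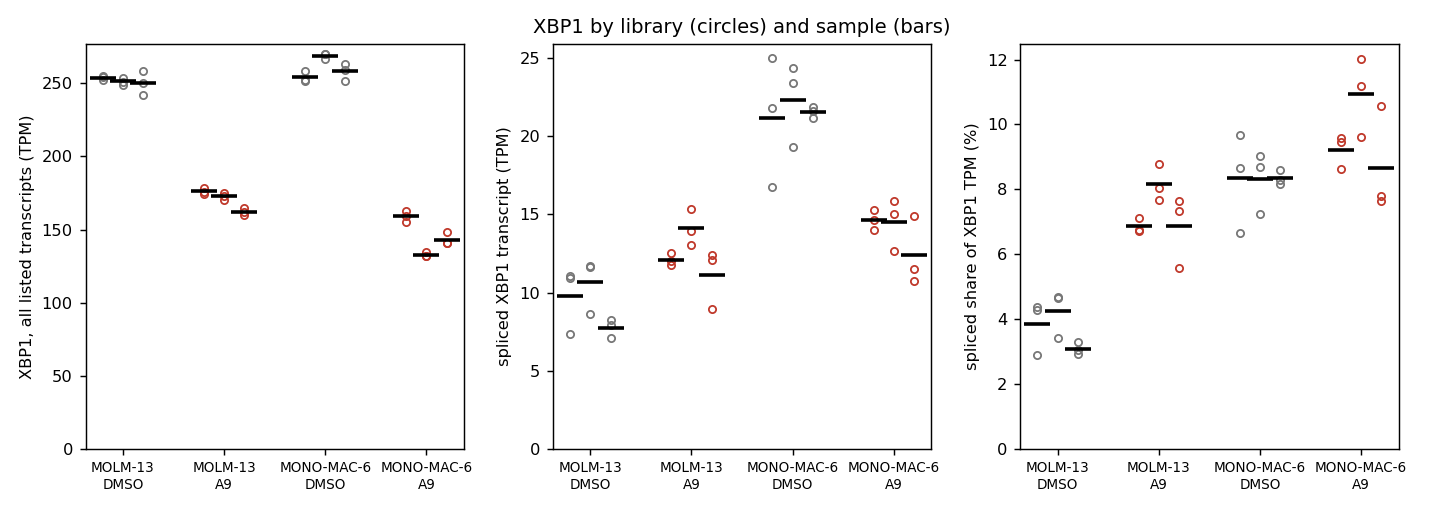
XBP1 with DMSO (grey) and A9 (red) in both lines. Circles mark single libraries and black bars the samples they were averaged to (3 per group). Panels show TPM of all matched XBP1 transcripts (left), TPM of the spliced model (middle) and its share of their sum in percent (right). The total is lower with A9 in both lines, and the libraries of the share overlap between treatments in MONO-MAC-6 and not in MOLM-13.

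The sensor and the other targets of the XBP1 branch did not pass the test with all samples. ERN1, the nuclease that splices XBP1, measured 2.16, 1.20 and 0.980 TPM with DMSO and 1.63, 2.56 and 1.20 TPM with A9 in MOLM-13, and the groups overlapped. Levels in MONO-MAC-6 were 3.21, 4.17 and 5.57 TPM with DMSO and 7.76, 6.78 and 6.48 TPM with A9, all A9 samples higher, with a log2 fold change of 0.61 (adjusted p = 0.152, and 0.0291 without DMSO sample 1, limma). EDEM1, which hands misfolded glycoproteins to degradation, had 0.11 (MOLM-13) and 0.96 (MONO-MAC-6; adjusted p = 0.151, and 0.00016 without DMSO sample 1, where the log2 fold change was 0.60). PDIA6, a disulfide isomerase that dampens IRE1, had -0.14 and -0.34 (adjusted p = 0.133 in MONO-MAC-6, and 0.00025 without DMSO sample 1). Without that sample 2 of 8 genes of the branch were higher (ERN1 and EDEM1; 14.5% of all genes) and 2 lower (XBP1 and PDIA6; 10.3% of all genes), counts too small to set apart from those shares. The HSPA5 co-chaperone DNAJB9, a classical target of spliced XBP1, had 0.31 (MOLM-13) and 0.19 (MONO-MAC-6), with all A9 samples higher in both and adjusted p of 0.732 and 0.377. The other ER co-chaperones DNAJB11 (-0.08 and 0.08) and DNAJC3 (-0.18 and 0.27) and the ubiquitin ligase SYVN1 (-0.12 and 0.02) overlapped between treatments in both lines. The branch median was -0.10 (MOLM-13) and 0.13 (MONO-MAC-6; -0.03 with scaling, -0.06 without DMSO sample 1).

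In the ATF6 branch 1 of 13 genes passed, CALR in MONO-MAC-6. CALR encodes calreticulin, the calcium-binding lectin chaperone of the ER, and had the highest TPM over matched transcripts among the members in both lines. In MONO-MAC-6 it measured 3397, 3496 and 3610 TPM with DMSO and 2523, 2273 and 2404 TPM with A9, every A9 sample lower. The log2 fold change was -0.55 (SE 0.080, 95% interval -0.74 to -0.35, adjusted p = 0.0205, limma). Levels in MOLM-13 were 1905, 1936 and 1942 TPM with DMSO and 1560, 1612 and 1647 TPM with A9, again without overlap, but the log2 fold change of -0.26 missed the threshold (adjusted p = 0.167). In MONO-MAC-6 the call passed in 1 of 6 fits without 1 sample, the one without DMSO sample 1, with adjusted p up to 0.166, and it missed with scaling (adjusted p = 0.0671). An opposite-strand gene, AC092069.1, overlaps CALR exons, and the labels state no strand for the libraries.

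HSPA5 (BiP), the chaperone that holds the sensors inactive, was lower in every A9 sample of both lines and passed the test in neither. It measured 69.7, 74.9 and 75.3 TPM with DMSO and 65.8, 60.7 and 66.7 TPM with A9 in MOLM-13. The MONO-MAC-6 samples held 170.3, 145 and 134 TPM with DMSO and 113, 108 and 112 TPM with A9. The log2 fold changes were -0.18 (95% interval -0.35 to -0.02, adjusted p = 0.553) and -0.42 (95% interval -0.67 to -0.17, adjusted p = 0.0955). DMSO sample 1 was its highest MONO-MAC-6 sample, and leaving it out gave -0.33 with an adjusted p of 0.00318 (limma).

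The sensor ATF6 overlapped between treatments in MOLM-13, with 8.21, 7.56 and 6.47 TPM with DMSO and 8.00, 8.09 and 6.76 TPM with A9. MONO-MAC-6 values were 3.24, 4.90 and 4.42 TPM with DMSO and 4.91, 5.26 and 5.25 TPM with A9, a log2 fold change of 0.26 (adjusted p = 0.375). The lowest of these values belongs to DMSO sample 1.

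Of the remaining 10 genes of the branch, 0 passed with all samples in either line. MANF, a secreted protein that stabilises folding intermediates with HSPA5, had -0.03 (MOLM-13) and -0.28 (MONO-MAC-6), where every A9 sample was lower (adjusted p = 0.107). CRELD2, another secreted ER protein, had -0.19 and -0.09, and SDF2L1, a partner of the HSPA5 cycle, had 0.01 and -0.30. HSP90B1, the ER member of the HSP90 family, had -0.10 and -0.05, and HYOU1, an ER chaperone of the HSP110 family, had -0.17 and -0.15. The degradation factors HERPUD1 and SEL1L had 0.05 and -0.19 in MOLM-13 and -0.17 and 0.64 in MONO-MAC-6, and the isomerase PDIA4 had -0.19 and 0.21.

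When MONO-MAC-6 DMSO sample 1 was left out, 6 of 13 genes of the branch were lower and 0 higher, against 10.3% and 14.5% of all genes. They were CALR, HSPA5, MANF (adjusted p = 0.00778), HYOU1 (adjusted p = 0.00827), HSP90B1 (adjusted p = 0.00518) and HERPUD1 (adjusted p = 0.0126), with log2 fold changes from -0.57 to -0.23. The branch median was -0.18 (MOLM-13) and -0.09 (MONO-MAC-6; -0.26 with scaling and -0.13 without DMSO sample 1).

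CANX and PDIA3 could be read only in part. CANX, the membrane-bound lectin chaperone, measured 2.65, 39.2 and 95.8 TPM in the MONO-MAC-6 DMSO samples and 67.0, 73.1 and 63.9 TPM with A9, so its DMSO samples spanned the whole A9 range. PDIA3, the isomerase that works with CALR and CANX, measured 2.54 to 6.75 TPM over all 12 samples. Transcripts whose identifiers are not in GENCODE 29 were left out of the sums, which makes the levels of all members lower limits, and those of CANX, PDIA3 and ATF4 the most in doubt. Fold changes likewise describe the matched transcripts only.

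**Figure D3:**
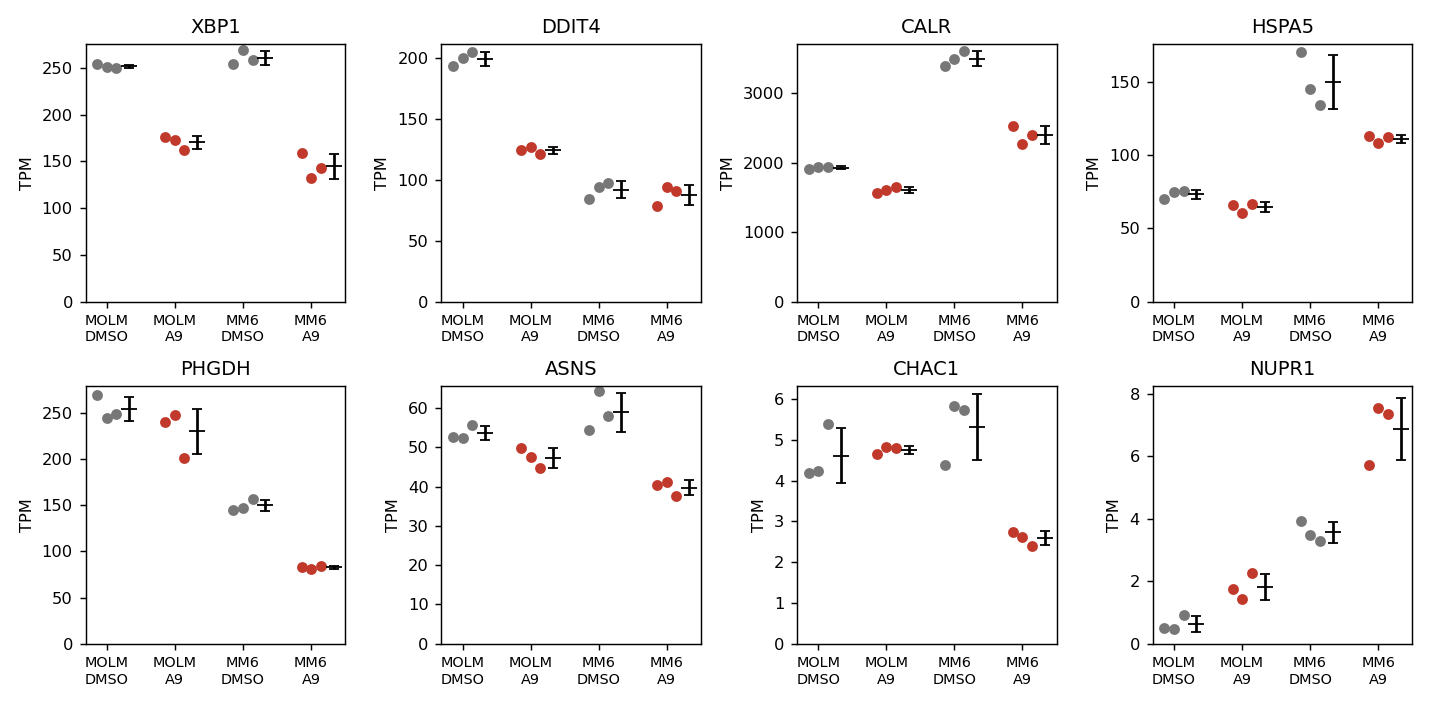
TPM (vertical axis, from 0) of 8 members in each sample (points, 3 per group) with DMSO (grey) and A9 (red), where MOLM stands for MOLM-13 and MM6 for MONO-MAC-6, and black marks give the mean and SD. XBP1 lies lower with A9 in both lines, DDIT4 separates in MOLM-13 and overlaps in MONO-MAC-6, and PHGDH overlaps in MOLM-13 and separates in MONO-MAC-6.

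The ATF4 branch held the remaining calls: DDIT4 in MOLM-13, and PHGDH, ASNS, CHAC1 and NUPR1 in MONO-MAC-6. Its upstream genes did not pass with all samples. EIF2AK3, which encodes the kinase PERK, measured 2.49, 1.65 and 1.16 TPM with DMSO and 1.83, 2.03 and 0.862 TPM with A9 in MOLM-13. Levels in MONO-MAC-6 were 0.715, 3.09 and 3.95 TPM with DMSO and 3.26, 3.32 and 3.26 TPM with A9. The treatments overlapped in both lines, and the lowest value was again that of DMSO sample 1.

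ATF4 itself, the central factor of the arm, measured 13.4, 11.7 and 13.5 TPM with DMSO and 12.7, 13.9 and 10.4 TPM with A9 in MOLM-13, which overlap. In MONO-MAC-6 it measured 15.8, 21.9 and 22.4 TPM with DMSO and 26.6, 27.2 and 28.5 TPM with A9, every A9 sample higher. The log2 fold change there was 0.45 (95% interval 0.09 to 0.82, adjusted p = 0.177), and 0.30 without DMSO sample 1 (adjusted p = 0.00846, limma). These values cover only the transcripts matched to GENCODE 29, and the change over all ATF4 transcripts is not known. ATF4 is controlled mainly at translation, which these data do not measure.

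DDIT3 (CHOP), the factor tied to cell death under lasting stress, overlapped between treatments in both lines. It measured 22.5, 24.5 and 29.5 TPM with DMSO and 24.2, 23.6 and 25.6 TPM with A9 in MOLM-13, for a log2 fold change of -0.05 (95% interval -0.33 to 0.23). The MONO-MAC-6 samples held 30.9, 25.1 and 24.9 TPM with DMSO and 26.4, 30.2 and 28.3 TPM with A9, a log2 fold change of 0.07 (95% interval -0.22 to 0.37). Exons of MARS1 and MBD6 on the other strand overlap DDIT3.

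Among the ATF4 branch regulators, PPP1R15A (GADD34), which restores eIF2 by dephosphorylation, had 0.09 (MOLM-13) and 0.56 (MONO-MAC-6), where all A9 samples were higher (adjusted p = 0.143, and 0.00318 without DMSO sample 1). TRIB3, a pseudokinase that restrains ATF4 and CHOP, had -0.09 and -0.21 (adjusted p = 0.382 in MONO-MAC-6, and 0.00412 without DMSO sample 1, as lower). ATF3 (-0.27 and 0.32) and CEBPG (-0.01 and 0.19), transcription factors of the arm, overlapped in both lines.

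DDIT4 (REDD1; chromosome 10, 72273920 to 72276036, plus strand) inhibits the growth kinase mTORC1 and answers to ATF4, hypoxia and glucocorticoids. In MOLM-13 it measured 193, 200 and 204 TPM with DMSO and 124, 127 and 121 TPM with A9, every A9 sample lower. This gave a log2 fold change of -0.68 (SE 0.054, 95% interval -0.81 to -0.55, adjusted p = 0.0192, limma). The call passed in 1 of 6 fits without 1 sample, with adjusted p from 0.0417 to 0.204, and missed with scaling (adjusted p = 0.120). MONO-MAC-6 values were 83.7, 94.0 and 97.1 TPM with DMSO and 78.4, 94.2 and 90.4 TPM with A9, which overlap, with a log2 fold change of -0.06 (95% interval -0.32 to 0.19). The antisense gene DDIT4-AS1 overlaps its exons.

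The hypoxia and glucocorticoid genes that share inputs with DDIT4 were read beside it. Of 6 hypoxia genes tested in MOLM-13, 0 passed, with log2 fold changes from -0.39 to 0.18. Of 5 glucocorticoid genes tested there, 0 passed, with log2 fold changes from -0.13 to 0.20. As 0.121% of all genes passed in MOLM-13, these counts of 0 say nothing about the inputs. In MONO-MAC-6 the phosphatase gene DUSP1 of the latter list rose by 0.83 (adjusted p = 0.0213, limma), from 0.841, 0.881 and 0.658 TPM with DMSO to 1.89, 2.26 and 2.42 TPM with A9. DUSP1 passed the filter there only through its A9 samples, so a call had to come from that side.

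PHGDH and ASNS, enzymes of serine and asparagine synthesis, fell in MONO-MAC-6. PHGDH (chromosome 1, 119648411 to 119744226, plus strand), the first enzyme of serine synthesis, measured 145, 147 and 157 TPM with DMSO and 83.2, 80.6 and 84.2 TPM with A9. The log2 fold change was -0.85 (SE 0.073, 95% interval -1.02 to -0.67, adjusted p = 0.00321, limma). It passed in each of the 6 fits without 1 sample and with each of the 7 other settings, with adjusted p up to 0.0484. The MOLM-13 samples held 269.5, 245 and 249 TPM with DMSO and 240.1, 248 and 202 TPM with A9, which overlap, with a log2 fold change of -0.15 (adjusted p = 0.806).

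ASNS, asparagine synthetase, fell in MONO-MAC-6 from 54.5, 64.2 and 58.0 TPM with DMSO to 40.5, 41.2 and 37.6 TPM with A9. This gave a log2 fold change of -0.55 (SE 0.096, 95% interval -0.78 to -0.32, adjusted p = 0.0352, limma). Levels in MOLM-13 were 52.8, 52.3 and 55.6 TPM with DMSO and 49.7, 47.5 and 44.7 TPM with A9, also without overlap, with a log2 fold change of -0.18 (adjusted p = 0.610). In MONO-MAC-6 it passed in 1 of 6 fits without 1 sample, that without DMSO sample 1, with adjusted p up to 0.213.

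The other enzymes of these routes did not pass with all samples. PSAT1, the second enzyme of serine synthesis, had log2 fold changes of -0.21 (MOLM-13) and -0.61 (MONO-MAC-6). SHMT2 and MTHFD2, which carry serine carbon into the mitochondrial folate cycle, had -0.18 and -0.42 in MOLM-13 and -0.46 and 0.14 in MONO-MAC-6. When DMSO sample 1 was left out, all 5 enzymes were lower there (PHGDH -0.87, PSAT1 -0.78, ASNS -0.61, SHMT2 -0.55 and MTHFD2 -0.32), with adjusted p from 2.44e-05 for PHGDH to 0.0323 for MTHFD2. In that fit 10.3% of all genes passed as lower.

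CHAC1, which degrades glutathione and is among the most ATF4-dependent genes, fell in MONO-MAC-6. It measured 4.38, 5.83 and 5.73 TPM with DMSO and 2.73, 2.63 and 2.40 TPM with A9, without overlap. The log2 fold change was -0.81 (SE 0.14, 95% interval -1.15 to -0.47, adjusted p = 0.0347, limma), and it passed in 1 of 6 fits without 1 sample, that without DMSO sample 1, with adjusted p up to 0.207. In MOLM-13 it measured 4.19, 4.25 and 5.39 TPM with DMSO and 4.64, 4.82 and 4.80 TPM with A9, which overlap.

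NUPR1, a small stress-induced nuclear protein, went the other way in MONO-MAC-6 and was the 1 member called higher with all samples. Levels in MONO-MAC-6 were 3.92, 3.49 and 3.28 TPM with DMSO and 5.74, 7.54 and 7.37 TPM with A9, every A9 sample higher. This gave a log2 fold change of 0.78 (SE 0.14, 95% interval 0.44 to 1.13, adjusted p = 0.0408, limma). It passed in 1 of 6 fits without 1 sample, that without DMSO sample 1, with adjusted p up to 0.240, and missed with scaling (adjusted p = 0.115). The MOLM-13 samples held 0.501, 0.469 and 0.920 TPM with DMSO and 1.75, 1.44 and 2.25 TPM with A9, a log2 fold change of 0.79 (adjusted p = 0.197) at levels near the filter.

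The amino acid transporters and the remaining target did not pass with all samples. SLC7A5, which imports large neutral amino acids, had 0.04 (MOLM-13) and -0.36 (MONO-MAC-6), where every A9 sample was lower (adjusted p = 0.120, and 0.00144 without DMSO sample 1). Its partner chain SLC3A2 had 0.03 and 0.15, so in MONO-MAC-6 the estimates for the 2 chains of the transporter had opposite signs. With median-ratio scaling both estimates there were below 0 (-0.54 and -0.03). VLDLR, a lipoprotein receptor, had -0.30 and -0.17 (without DMSO sample 1, -0.57 with an adjusted p of 0.00972). Without DMSO sample 1, 9 of 18 genes of the ATF4 branch were lower, against 10.3% of all genes, and 3 higher (ATF4, PPP1R15A and NUPR1), near the 14.5% of all genes. The branch median was -0.10 (MOLM-13) and 0.00 (MONO-MAC-6; -0.17 with scaling and -0.23 without DMSO sample 1).

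**Figure D4:**
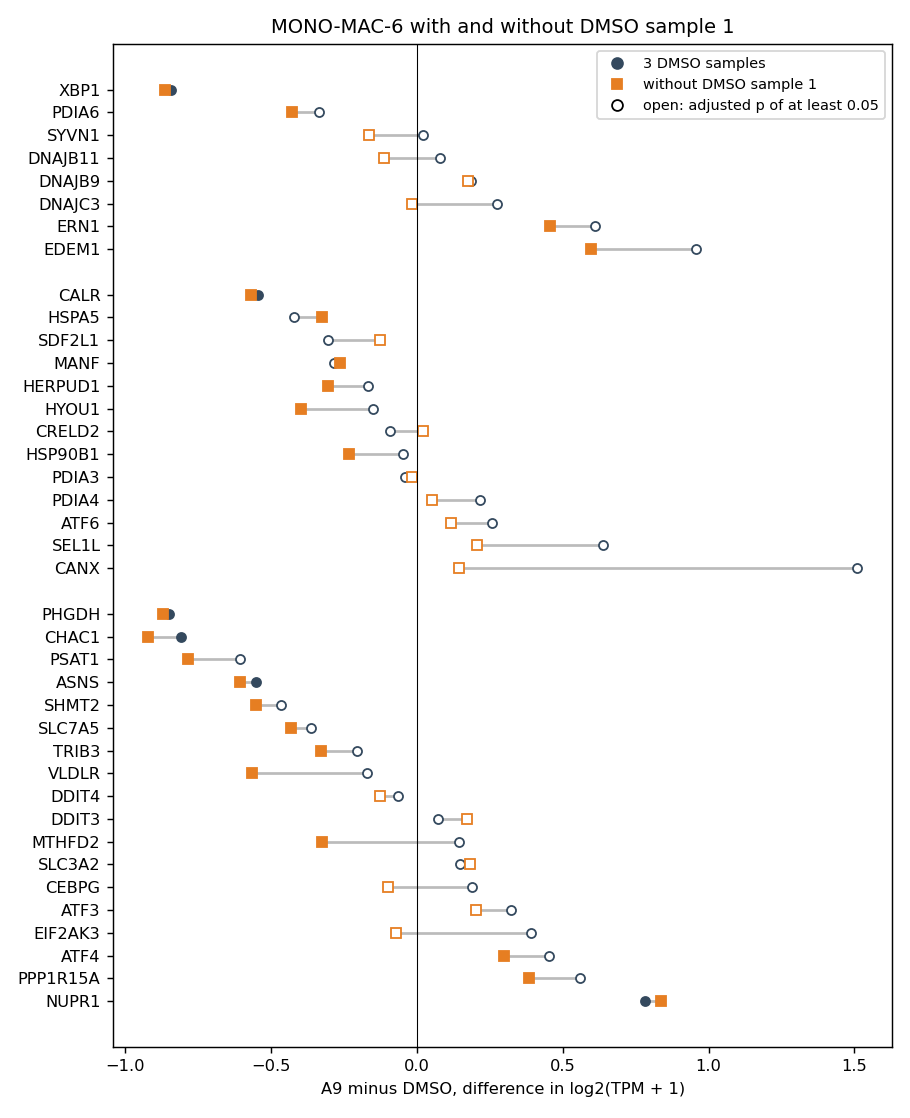
Log2 fold change of the 39 members in MONO-MAC-6 (horizontal axis, A9 minus DMSO in log2(TPM + 1)) with all 3 DMSO samples (circles) and without DMSO sample 1 (squares), 1 row per gene in blocks by branch, filled where the adjusted p was under 0.05. CANX moves from 1.51 to 0.14 and EDEM1 from 0.96 to 0.60, whereas PHGDH (-0.85 and -0.87) and XBP1 (-0.84 and -0.86) hardly move.

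The branches were set side by side with no test between them. In MOLM-13, 5 of 8 genes of the XBP1 branch, 9 of 13 of the ATF6 branch and 12 of 18 of the ATF4 branch lay below the all-gene median. In MONO-MAC-6 these counts were 4, 9 and 12, so the ATF6 and ATF4 branches had the same counts in both lines. With the length trend removed they were 5, 11 and 11 (MOLM-13) and 5, 10 and 10 (MONO-MAC-6). The response to A9 was then compared between the lines (line by treatment interaction, 12 samples). In this test 3 members passed, 1 higher and 2 lower in MONO-MAC-6, against 2.99% of 13411 genes (1.92% higher and 1.07% lower), and all 3 were of the ATF4 branch. The MONO-MAC-6 minus MOLM-13 difference was 0.62 for DDIT4 (adjusted p = 0.0153), -0.70 for PHGDH (adjusted p = 0.00831) and -0.85 for CHAC1 (adjusted p = 0.0262). It was 0.51 for ATF4 (95% interval 0.07 to 0.95, adjusted p = 0.228) and -0.01 for NUPR1 (95% interval -0.48 to 0.46).

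Another 126 genes of the same pathways and of neighbouring stress responses were read in the same fits. In MOLM-13, 0 of 118 tested passed (0.121% of all genes), with 10 at an unadjusted p under 0.05 (7.90% of all genes). In MONO-MAC-6, 4 of 120 passed, 3 higher and 1 lower, about the share of all genes (3.36%, with 2.51% higher and 0.855% lower). The cystine importer SLC7A11, an ATF4 and NRF2 target, rose from 6.66, 11.4 and 12.3 TPM with DMSO to 22.1, 25.3 and 23.0 TPM with A9, by 1.18 on the log2 scale (adjusted p = 0.0481, limma). The autophagy receptor SQSTM1 (p62) rose from 73.1, 85.9 and 92.9 TPM to 161, 206 and 178 TPM, by 1.10 (adjusted p = 0.0110, limma). SSR2, a subunit of the translocon-associated complex, fell from 574, 576 and 575 TPM to 453, 438 and 457 TPM, with a log2 fold change of -0.35 (adjusted p = 0.0425, limma). The third was DUSP1, which entered the test only through its A9 samples. All 4 also passed without DMSO sample 1, SLC7A11 with 0.93 and SQSTM1 with 1.01.

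By list, 0 of 14 other ER folding genes, 0 of 13 ER-associated degradation genes, 0 of 12 genes of sensor processing and eIF2 control, 0 of 13 aminoacyl-tRNA synthetases, 0 of 8 cytosolic heat shock genes and 0 of 7 mitochondrial proteostasis genes passed in MONO-MAC-6 with all samples. Without DMSO sample 1, 52 of the 120 passed, 9 higher and 43 lower, against 24.8% of all genes (14.5% higher and 10.3% lower). They included 10 of 13 aminoacyl-tRNA synthetases, which charge tRNAs and are ATF4 targets in part, all lower, with CARS1 (-0.41), GARS1 (-0.37) and MARS1 (-0.36) leading. Of 22 other ATF4 targets, 10 were lower, led by the transaminase GPT2 (-0.91) and the serine synthesis enzyme PSPH (-0.65), and 4 were higher. In the translocon and ER export list 8 of 20 were lower, and in the cytosolic heat shock list 5 of 8. Between the lines, 6 of 122 of these genes passed in the interaction, against 2.99% of all genes, and 23 had an unadjusted p under 0.05, against 17.7%. The A9 effect was higher in MONO-MAC-6 for SQSTM1 and DUSP1, and lower for PPIB, SPCS1, HSP90AA1 and EGLN3. EGLN3 was under the filter in MOLM-13, with at most 0.00632 TPM in a sample, so its difference is the change in MONO-MAC-6 alone.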

How the data were processed

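Poly(A) RNA of 36 libraries (RIN of at least 8) was sequenced as paired reads of 150 bases on a NovaSeq at a stated 25000000 reads per sample, per the labels. The authors deposited TPM per Ensembl transcript, and the submitters' processing notes name kallisto, limma and GRCh38, without versions or roles. Of 207175 transcripts, 162561 (78.47%, holding 89.85% to 91.38% of TPM) matched GENCODE 29 and were summed by symbol. Reads of pseudogene copies, as of HSP90B1, ATF4 and PSAT1, may be split in ways the tables do not show. The labels state 3 replicates but list 9 libraries per group, and do not say which of the 2 numbers is the replicate. TPM were averaged over the libraries that share a first number, a choice made here.

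Tests used log2(TPM + 1), which understates changes of low genes, and took genes whose mean reached 1 TPM in either group. They were run in R 4.3.3 with the trended, robust eBayes of limma 3.58.1. P-values were two-sided with Benjamini-Hochberg adjustment over all genes, at a threshold of 0.05. Spliced shares were compared by an exact permutation test. Fits were tested on simulated data. The alternatives tried were no filter, a minimum of 5 TPM, a pseudocount of 0.1, median-ratio scaling, a lowess correction for transcript length per sample, averaging by the second number, a replicate block, and single samples left out.

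The members and lists were chosen with earlier results of these data known. Values in every sample are given for members past the threshold and for XBP1, DDIT4, HSPA5, ATF4, DDIT3, ERN1, ATF6 and EIF2AK3; CANX was added after its values were seen. From each other list up to 3 genes per direction are named. Marker lists covered myeloid, monocyte, lymphoid, erythroid and epithelial or stromal cells, and 1 marker is not reported here. The summed erythroid markers reached 8.66 TPM, the lymphoid markers 11.2 TPM, and the epithelial and stromal markers (KRT18 and PECAM1 above 1 TPM) 32.6 TPM in MOLM-13. Scripts ran under Python 3.11.15, pandas 2.3.3, numpy 2.4.6 and matplotlib 3.10.9.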

Additional observations from a re-analysis of the deposited data

Results flagged for a closer look

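For 3 members the A9 response differed between MONO-MAC-6 and MOLM-13 by an interaction test over 12 samples (limma, Benjamini-Hochberg over 13411 genes), and line and dose cannot be told apart. For DDIT4 the MONO-MAC-6 minus MOLM-13 difference was 0.617 on the log2 scale (95% interval 0.37 to 0.86), and it missed the threshold with scaling (0.39, adjusted p = 0.258). For PHGDH it was -0.698 (95% interval -0.95 to -0.45), and it passed in each of 12 fits without 1 sample. For CHAC1 it was -0.852 (95% interval -1.23 to -0.47), and it passed in 2 of those 12 fits, with adjusted p up to 0.0865.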

How the results depend on the processing

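No called member reversed its direction under any alternative. In MOLM-13 the count of 2 members called became 0 with no filter, 0 with median-ratio scaling and 23 with libraries averaged by the second number, and ran from 0 to 1 without single samples. In MONO-MAC-6 the count of 6 became 3 with no filter, 8 with scaling, 33 by the second number and 15 with the length trend removed, and ran from 1 to 22 without single samples, 22 being without DMSO sample 1. The count of 3 in the line difference became 5 with scaling, 30 by the second number and 7 with the length trend removed, and ran from 1 to 8. With the replicate block 1 member passed in MONO-MAC-6 (PHGDH) and 2 in MOLM-13. For each gene the group mean was subtracted, and the deviations left were correlated between DMSO and A9 samples. Those of same-numbered samples correlated at 0.54, -0.06 and 0.79 in MOLM-13 and at -0.07, 0.18 and -0.22 in MONO-MAC-6. In MOLM-13, deviations of DMSO sample 1 also correlated with those of A9 samples 2 and 3, at 0.78 and -0.80. Deviations within a group sum to 0 for each gene, so opposite signs are in part built in. Deviations were thus shared between the MOLM-13 groups, but not by sample number alone, and a pairing cannot be read from them. The ATF4 branch median in MONO-MAC-6 was -0.17 with scaling and ran from -0.23 to 0.066 without single samples. The spliced share difference of XBP1 ran from 3.13 to 3.82 percentage points in MOLM-13 and from 0.603 to 1.75 in MONO-MAC-6 without single samples. The cause of these shifts was not tested. Depth is unknown, so precision rests on 3 samples per group.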
